A study of Mus musculus with 31 samples.

Results

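The B6 allele was compared with the JF1 allele in hybrid mouse cells after 21 days of differentiation in culture. The compared libraries were 4 of the 31 in the series, 2 from the cross labelled BJ1 and 2 from the reciprocal cross labelled JB6. B6 stands for C57BL/6J and JF1 for a strain derived from Japanese fancy mice, and the B6 allele was inherited from the mother in BJ1 and from the father in JB6. Each autosomal gene was described by its read bases, that is, sequenced bases at known strain differences that carried one allele or the other. Of the 16074 features in the day 21 table, 11047 were autosomal and averaged at least 20 read bases over the 4 libraries, and these were tested. A gene was kept when the allele with more read bases was the same in both crosses, which held for 8001 genes, 72.4% of those tested. Without any bias, the 2 crosses would still point the same way by chance in many genes. Of the kept genes, 4390 had more B6 and 3611 more JF1 read bases, and 3046 genes pointed opposite ways or were even in 1 cross. At the edge of the floor, 2310061J03Rik, Abi2 and Amy1 entered with a mean of 20 read bases, while 2610020H08Rik, Ache and Ccl6 stayed out with 19.75.

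Both crosses used embryonic stem cells (ESCs) derived from hybrid blastocysts and labelled male. Their B6 parent carried a transgene that expresses GFP from the Oct4 promoter, so the B6 genome of every culture library came from that transgenic stock. Cells of the day 12 and day 21 groups were differentiated from these ESCs on matrigel in a defined medium with B27 lacking vitamin A, and received the Hedgehog inhibitor cyclopamine from day 2 to day 10. The other groups used for comparison were the undifferentiated hybrid ESCs (2 libraries per cross), the same cultures at day 12 (2 per cross), the E13.5 tissue labelled DT (3 per cross) and P0 cortex (4 BJ1 and 3 JB6). Per the authors' description, tissue came from crosses of pure B6 and JF1 mice, without the transgene. The labels do not say whether the 2 libraries of a cross were separate cultures, so p-values measure only the spread between these libraries, which may be technical. A property of a cross cannot be told apart from a property of the cell line that stands for it.

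In a hybrid cell both alleles of a gene share the same nucleus and the same factors. A gene read more from the same strain's copy in both crosses, beyond chance, may therefore differ in sequence near or within it, in its DNA or chromatin marks, or in how well its reads map. Parental imprinting silences one copy by its parent of origin, and it reverses the strain that is read when the cross is reversed. A strain bias keeps its direction in both crosses.

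The 4 libraries held 5912732 to 7448555 read bases, and B6 carried 50.7% to 51.9% of the autosomal ones. Mitochondrial genes took 10.6% to 20.7%. Mitochondria come from the mother, and 99.8% of their read bases carried the maternal B6 allele in both BJ1 libraries. In the JB6 libraries 94.8% and 95.3% carried the maternal JF1 allele and the rest was labelled B6. Intervals and floors from read bases cover counting error only, since 1 read can cover several strain differences. Tested genes had a median of 12 covered strain differences, and 270 had 1. Of the markers of cortical projection neurons, Neurod6 and Tbr1 were near absent in the cultures, but others were read. Ctgf and Cux1, of the same kind of list, averaged 400 and 293 read bases at day 21, against 116 and 382 in P0 cortex. The list as a whole summed lower at day 21 than in P0 cortex. Levels are given as CPM, the read bases of a gene scaled to a library total of 1000000. Neurod6, a transcription factor of cortical projection neurons, was at 0.161 to 1.69 CPM at day 21 against 94.3 to 165 in P0 cortex, and Tbr1, of deep-layer neurons, was at 1.86 to 2.95 against 120 to 157. The epithelial keratin Krt8 was at 1440 to 1820 in the cultures against 0 to 1.44 in P0 cortex, and the collagen gene Col1a2 at 1100 to 1690 against 23.9 to 60.8. Pax6, of neural progenitors, was at 3.37 to 8.79 against 7.8 to 9.85, which overlap, and the list of dorsal telencephalic progenitor genes summed to 2265 to 2505 against 1958 to 2149. The neuronal tubulin Tubb3 was detected at 253 to 418 against 1390 to 1750. The cultures, labelled as in vitro cortex, thus carried the summed progenitor list above its P0 level, and little of Neurod6 and Tbr1. In bulk samples, fewer cells of a type and less RNA per cell cannot be told apart.

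Of the 11047 genes, 3799 (34.4%) differed between the strains at an adjusted p of 0.05 in edgeR's quasi-likelihood test with Benjamini-Hochberg adjustment. B6 was higher in 2160 (19.6%) and JF1 in 1639 (14.8%), and 4716 had an unadjusted p under 0.05. Of the called genes, 3717 were kept, 2135 with B6 higher and 1582 with JF1 higher, and the other 82 did not point the same way in the 2 crosses. In 4753 genes (43.0%) all 4 libraries lay on the same side of an even share, and 3368 of these were called. The keeping rule used the same read bases as the test, so these counts describe how direction and test overlap.

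**Figure D1:**
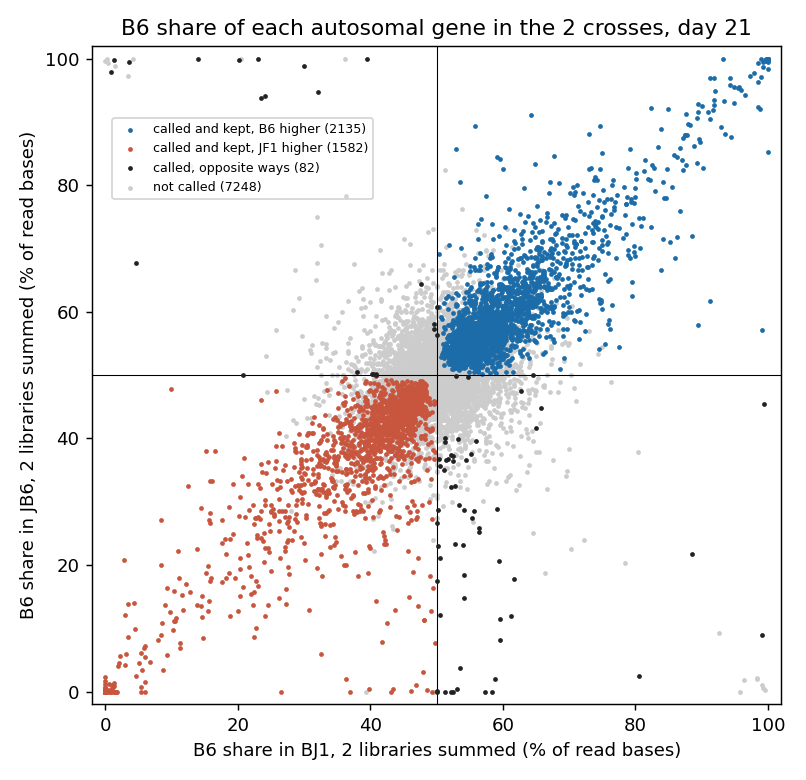
Each point is an autosomal gene at day 21, with the B6 share of its read bases in BJ1 on the horizontal axis and in JB6 on the vertical axis (both in %, 2 libraries summed). The 2135 kept genes called with B6 higher fill the upper right and the 1582 called with JF1 higher the lower left, and the 82 genes called without pointing the same way lie outside these quadrants.

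Most strain differences were small. The median size was 0.49 on the log2 scale over the kept and called genes, against 0.22 over all tested genes. In 2982 of the 3717 (80.2%) the 2 alleles differed by less than 1 on the log2 scale. Another 471 differed by 1 to 2, 128 by 2 to 4, and 136 by 4 or more. B6 was the higher allele in 655 of the 1088 genes between 0.5 and 1, and in 42 of the 136 genes at 4 or more. Depth moved with the share of calls: 23.2% of 3283 genes with a mean of 20 to 100 read bases were called, 35.5% of 6662 genes with 100 to 1000, and 61.3% of 1102 genes with 1000 or more. The excess of B6 calls also moved with the scaling. When each allele column had its own scaling factor, 1851 genes were called with B6 higher and 1925 with JF1 higher, so that B6 took 49.0% of calls in place of 56.9%, and the median log2 ratio of all genes was -0.01 in place of 0.03. DESeq2 called 1694 genes, 969 with B6 higher and 725 with JF1 higher.

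The promoters of 3 genes that recur in the results are shown because their allelic shares differed in direction or between culture and cortex. All 3 matched the RefSeq table of promoters for GRCm38.p6, and the windows hold the 250 bases before the annotated start, with CG pairs in capitals. Ednrb lies on chromosome 14 (chr14:103843702-103843951, minus strand), Fxyd6 on chromosome 9 (chr9:45369935-45370184, plus strand) and C1d on chromosome 11 (chr11:17257438-17257687, plus strand).
Ednrb: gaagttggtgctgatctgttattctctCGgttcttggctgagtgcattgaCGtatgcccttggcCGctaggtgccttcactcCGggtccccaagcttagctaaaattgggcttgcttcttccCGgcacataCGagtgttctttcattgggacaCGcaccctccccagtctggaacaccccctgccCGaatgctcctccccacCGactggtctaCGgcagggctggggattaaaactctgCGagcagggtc
Fxyd6: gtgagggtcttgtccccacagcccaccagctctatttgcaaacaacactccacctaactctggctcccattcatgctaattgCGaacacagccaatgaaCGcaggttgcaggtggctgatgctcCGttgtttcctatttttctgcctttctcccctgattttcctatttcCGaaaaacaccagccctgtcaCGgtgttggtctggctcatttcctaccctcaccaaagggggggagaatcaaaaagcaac
C1d: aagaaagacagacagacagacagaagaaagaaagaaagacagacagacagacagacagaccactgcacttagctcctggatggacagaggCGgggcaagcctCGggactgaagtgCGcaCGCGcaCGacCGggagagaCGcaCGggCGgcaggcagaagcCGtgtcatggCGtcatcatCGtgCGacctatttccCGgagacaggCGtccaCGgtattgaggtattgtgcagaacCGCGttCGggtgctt
These are the reference letters, which are those of B6, and the JF1 letters were not analysed here. The Ednrb window held 11 CG pairs, the Fxyd6 window 5 and the C1d window 20, where the median of 27025 windows of the same length was 6. As many or more CG pairs were found in 36%, 55.5% and 17.7% of all windows. Neither strand of the 3 windows held TATAAA, which 13% of all windows hold on either strand. CCAAT was found on either strand 2 times in the Ednrb window, 1 time in the Fxyd6 window and not in the C1d window, and 34.5% of all windows hold it.

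Ednrb encodes the endothelin receptor B, needed by neural crest cells that become pigment cells and gut neurons, and JF1 mice are known for the piebald allele of this gene. The B6 share of its read bases was 81.6% and 75.3% in the BJ1 libraries and 80.2% and 78.7% in the JB6 libraries, 79.0% ± 2.73 (SD, n = 4). All 4 libraries lay above 75% and the crosses overlapped. Summed over them, 1953 read bases were B6 and 521 JF1, over 27 strain differences, and the log2 ratio of B6 over JF1 was 1.91 ± 0.086 (SE, adjusted p = 6.74e-21). The bias was larger than in P0 cortex, where the B6 share was 64.3% ± 3.76 (SD, n = 7), a difference of 1.04 on the log2 scale (adjusted p = 2.82e-08). It was smaller than at day 12, where the B6 share was 87.4% ± 4.06 (SD, n = 4; difference -0.78, adjusted p = 0.0124). Nnt, a mitochondrial transhydrogenase with a known deletion in C57BL/6J, did not pass the test, with a B6 share of 53.3% ± 5.48 (SD, n = 4; adjusted p = 0.275, edgeR) and values from 47.1% to 60.4%.

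Strong graded biases, in which both alleles were read but unequally, were first sought among the most abundant genes. Of the 6 genes taken with B6 higher, Pgam1, a glycolytic enzyme on chromosome 19, had B6 shares of 69.6% and 69.2% in BJ1 and 69.9% and 68.8% in JB6, a spread of about 1 point around 69.4% ± 0.472 (SD, n = 4). Its log2 ratio was 1.18 ± 0.028 (SE, adjusted p = 1.19e-30). Tuba1a, an alpha-tubulin of young neurons on chromosome 15, had 72.1% and 74.6% in BJ1 and 73.5% and 74.2% in JB6, a log2 ratio of 1.48 (adjusted p = 2.29e-32). Stmn1, a microtubule-destabilising protein on chromosome 4, had 75.3% to 77.8% B6, and the ribosomal protein gene Rps6, also on chromosome 4, had 82.5% to 83.2%. Nsa2, of ribosome assembly, had 61.4% to 67.3% and Cdk2ap1, a cell cycle regulator, 69.6% to 72.4%. In all 6 genes the libraries of the 2 crosses overlapped. Each has at least 1 near-identical copy elsewhere in the annotated transcripts, 12 other genes for Tuba1a and 10 for Rps6, and how reads from copies enter these shares was not tested.

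Of the 6 genes taken with JF1 higher, Fxyd6, a regulator of the sodium pump on chromosome 9, had B6 shares of 26.9% and 28.3% in BJ1 and 28.5% and 25.5% in JB6, 27.3% ± 1.39 (SD, n = 4), with a log2 ratio of -1.42 ± 0.044 (SE, adjusted p = 2.64e-26). 6330403K07Rik, on chromosome 11, had 23.3% and 24.5% in BJ1 and 26.3% and 24.0% in JB6, a log2 ratio of -1.62 (adjusted p = 4.37e-25). Dkk3, a secreted protein of the Dickkopf family on chromosome 7, had 31.1% and 32.4% in BJ1 and 32.4% and 34.6% in JB6, a log2 ratio of -1.05 (adjusted p = 1.17e-19). All 4 libraries of each gene lay under 35%. Sqstm1, the autophagy receptor p62, had 30.9% to 33.7% and Sepp1, the selenium carrier of plasma, 31.3% to 33.0%. No near-identical copy was found for Fxyd6, Dkk3 or 6330403K07Rik. Rps18, on chromosome 17, met the same rule by its mean, but its crosses stood apart and it is described with the genes of 1 cross.

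**Figure D2:**
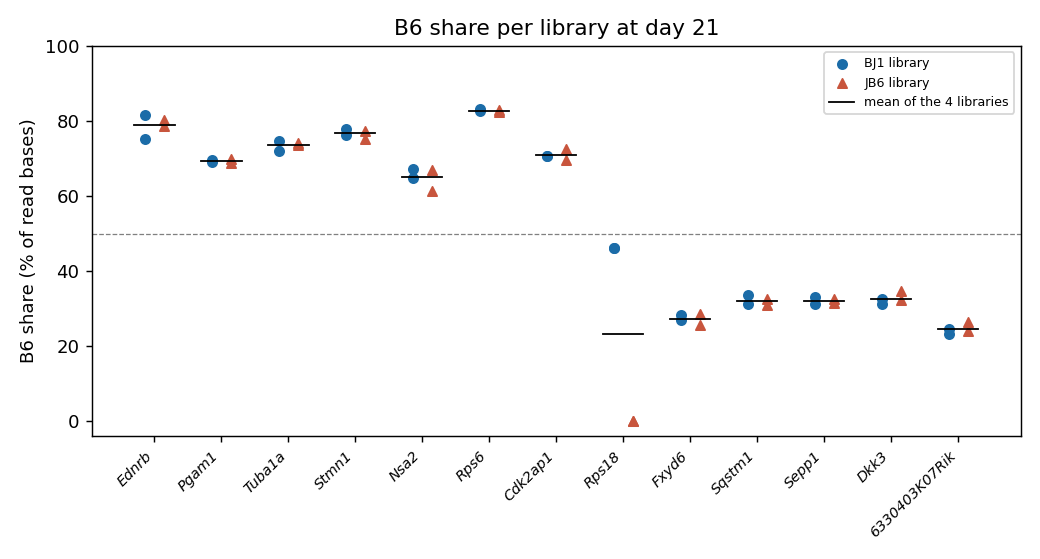
B6 share of read bases (%, vertical axis) in each day 21 library for Ednrb and the 12 genes of the graded sets, with BJ1 libraries as circles, JB6 libraries as triangles and the mean of 4 as a bar. The points of a gene lie within a few points of each other, except for Rps18, where the BJ1 libraries lie at 46.3% and 46.1% and the JB6 libraries at 0.078% and 0.111%.

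A small group of genes was read almost entirely from 1 strain in both crosses. The B6 share was 95% or more in 33 genes and 5% or less in 74. On the B6 side H3f3a, a replacement histone, had 18116 B6 and 1 JF1 read bases, and the nucleosome-binding protein Hmgn2 had 15909 and 5. Rpl15, of the large ribosomal subunit, had 19686 and 3, the splicing factor Nhp2l1 10094 and 2, the ubiquitin-like modifier Sumo2 5098 and 3, and the chaperone Hspa8 4044 and 2. Gm13363 had 1496 B6 and no JF1 read bases, so B6 was at least 499-fold higher against a floor of 3 counts over the 4 libraries. The same bias was found in tissue: 26 of the 33 genes reached the floor in P0 cortex and 23 of them again had 95% or more B6. It also carried few strain differences per gene, with a median of 3. Of the 28 genes whose transcript could be matched, 19 (67.9%) had a near-identical pseudogene copy, defined as 95% identity over 200 bases, against 7.14% of 10858 tested genes. H3f3a had 16 such copies, Rpl15 14 and Sumo2 10, and their part in the shares was not tested.

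The JF1 side behaved otherwise. Of the 74 genes with 5% or less B6, 54 reached the floor in P0 cortex, and 7 of those stayed at 5% or less, among them Tsnax, the partner of translin, with 4 B6 and 3347 JF1 read bases at day 21. The chromatin reader Morf4l1 (2 and 1949) and the glutathione transferase Gstp2 (0 and 1152, at least 384-fold lower in B6) were also in that group. A far larger number, 42 genes, had a B6 share between 20% and 80% in P0 cortex, from 40.8% to 79.2% with a median of 54.2%. These classes were defined on the shares at both stages, so no test of that difference is given. The same genes were at 5% or less in ESCs (19 of the 19 that reached the floor there) and at day 12 (31 of 31), while all 38 that reached the floor at E13.5 were in the middle range.

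Of these 42 genes, 6 are given with their values. Heatr3, a nuclear import factor of ribosomal proteins, had 1 B6 and 2622 JF1 read bases at day 21, against a B6 share of 40.8% ± 3.04 (SD, n = 7) in P0 cortex. Zfp423, a zinc finger regulator of progenitors, had 7 and 2081, against 52.2% ± 3.92 in P0 cortex, and Bsn, a scaffold of the presynaptic zone, had 3 and 1182, against 48.9% ± 1.34. Olig1, a transcription factor of oligodendrocytes, had 0 B6 and 435 JF1 read bases (B6 at least 145-fold lower), against 50.7% ± 2.42 B6 in P0 cortex. Uqcrc1, a core protein of respiratory complex III, had 0 and 692 (at least 231-fold lower), against 79.4% ± 4.16, and the synapse organiser Cbln1 had 0 and 651 (at least 217-fold lower), against 46.9% ± 3.74. Clns1a, a chaperone of splicing particle assembly, lay outside the 42, with 0 and 413 (at least 138-fold lower) at day 21 against 85.4% ± 4.11 in P0 cortex. At day 21 all or nearly all read bases of these 7 genes were JF1, and in P0 cortex both alleles were read.

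Many of these genes were neighbours in the genome. Of the 42, 12 were on chromosome 7, 7 each on chromosomes 8 and 9, 5 on chromosome 16, 4 on chromosome 14, 3 each on chromosomes 4 and 17 and 1 on chromosome 3. In the order of tested genes along the RefSeq annotation, genes at 5% or less B6 stood in unbroken runs: Thrsp, Rsf1, Clns1a, Myo7a and Acer3 on chromosome 7, Cbln1, Zfp423, Tmem188 and Heatr3 on chromosome 8, Mst1r, Uba7, Amigo3 and Bsn on chromosome 9, and Olig2, Olig1 and Ifnar2 on chromosome 16. The authors' description states that the transgenic B6 parent of the culture crosses carried stretches of CBA genome, with rare DBA sequence, and that strain differences where JF1 shares the CBA or DBA base and B6 was nearly absent were removed. Whether the remaining differences in these runs lie in such stretches was not tested. Near-identical pseudogene copies were found for 3 of the 40 matched genes (7.5%), close to the 7.14% of all tested genes.

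**Figure D3:**
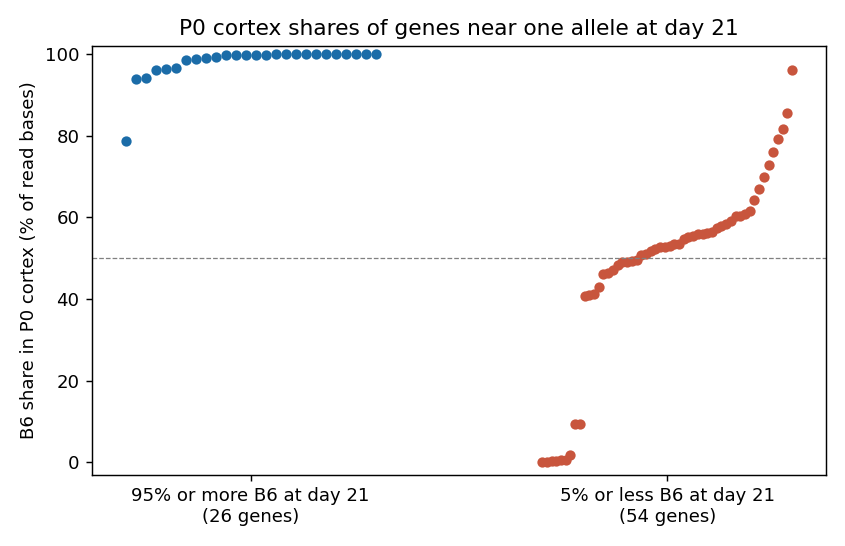
B6 share in P0 cortex (%, vertical axis, libraries summed) of the genes at 95% or more B6 (26 genes) or 5% or less B6 (54 genes) at day 21, sorted within each group. Of the first group 23 genes stay at 95% or more, and of the second 42 lie between 40.8% and 79.2%.

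Genes that departed from an even share in 1 cross alone mostly did so in JB6. In 37 genes the B6 share was 20% or less in JB6 and 40% to 60% in BJ1, and 21 of them were on chromosome 17. The 21 had a median B6 share of 3.13% in JB6 and 50.1% in BJ1 at day 21, and in P0 cortex the 19 of them that reached the floor had 37.9% to 68.9% in JB6 and 37.3% to 67.8% in BJ1. The reverse pattern, low in BJ1 and even in JB6, was met by 1 gene. In 7 genes JB6 was at 80% or more with BJ1 even, and in 3 genes BJ1 was at 80% or more with JB6 even. The run Slc39a7, Rxrb, Col11a2 and Brd2 stood unbroken on chromosome 17. Rps18, of the small ribosomal subunit, had B6 shares of 46.3% and 46.1% in BJ1 and 0.078% and 0.111% in JB6, against 47.6% ± 0.954 (SD, n = 7) in P0 cortex. On chromosome 15, the mitochondrial ATP synthase gene Atp5g2 had 49.7% and 50.3% in BJ1 and 0% and 0.192% in JB6. The keratins Krt8 and Krt18, neighbours on chromosome 15 known from simple epithelia, had 45.5% and 45.8%, and 53.4% and 57.4%, in BJ1, and 25.4% and 27.6%, and 27.4% and 29.3%, in JB6. The crosses did not overlap in any of these 4 genes. Of the 37 genes, 20 counted as kept and called because their BJ1 share lay slightly under 50%, so that call does not describe a strain bias shared by both crosses. Under a model with a strain term and no parent term, Rps18, Atp5g2, Krt8 and Krt18 were not called.

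Chromosome 17 held 508 tested genes, of which 184 (36.2%) were kept and called, 87 with B6 and 97 with JF1 higher. Across the chromosomes this share ran from 29.4% to 39.7%, so that of chromosome 17 was not unusual. It also held 31 of the 82 genes called while pointing opposite ways. The class I histocompatibility and antigen processing genes, which present peptides to T cells and lie largely on this chromosome, showed the same contrast of crosses. Of 11 tested, 9 were called with JF1 higher, against 14.8% of all tested genes, none with B6 higher, and 6 of the 9 were kept, with a median log2 ratio of -0.72 against 0.03 over all tested genes. Of the 9 tested on chromosome 17, 8 were called. Psmb9, a subunit of the immunoproteasome, had B6 shares of 48.9% and 47.2% in BJ1 and 8.48% and 14.7% in JB6. Tapbp, the chaperone that loads peptides on class I molecules, had 48.5% and 52.4% in BJ1 and 11.2% and 13.2% in JB6. Psmb9 and Tapbp too were not called without the parent term. Chromosome 1 leaned the other way and in the other cross. Of its 239 kept and called genes, 185 (77.4%) had B6 higher, where this part was 47.1% to 65.6% on the other autosomes. Its median B6 share was 54.8% and 53.3% in BJ1 and 50.7% in both JB6 libraries, where the other autosomes had medians of 50.2% to 50.6%. The median of chromosome 1 in BJ1 was 54.3% and 54.5% in ESCs and 52.3% and 54.1% at day 12, and 50.8% to 51.4% in the 4 BJ1 libraries of P0 cortex. Copy number was not measured in these data.

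Many imprinted genes were called although their share turned round with the cross. Of 26 tested genes read from the paternal copy, 13 were called with B6 higher and 2 with JF1 higher, and 2 of these 15 were kept; over all tested genes 19.6% were called with B6 and 14.8% with JF1 higher. Of 21 read from the maternal copy, 5 were called with B6 and 1 with JF1 higher, and 2 of the 6 were kept; these 6 are 28.6% of the list, below the 34.4% of all tested genes. Peg3, a paternally read zinc finger gene on chromosome 7, had B6 shares of 1.18% and 1.46% in BJ1 and 99.8% and 99.6% in JB6. Plagl1, a paternally read growth regulator on chromosome 10, had 2.49% and 4.43% in BJ1 and 99.7% and 99.3% in JB6. Dlk1, a paternally read Notch ligand on chromosome 12, had 35.4% and 28.3% in BJ1 and 94.0% and 95.6% in JB6, and Ndn, of the Prader-Willi region on chromosome 7, had 24.4% and 22.8% in BJ1 and 91.2% and 95.5% in JB6. The maternally read RNA Rian had 99.2% and 99.1% in BJ1 and 9.34% and 8.38% in JB6. In each gene the higher strain changed with the cross, and the copy that is usually silent was read more in one cross than in the other, in BJ1 for Dlk1 and Ndn and in JB6 for Rian. These 5 genes and Nnat were not called under a model with a strain term alone.

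The remaining gene lists are given as counts beside the share of all tested genes, 19.6% with B6 higher and 14.8% with JF1 higher. Over all genes the share called rose with depth, from 23.2% at 20 to 100 read bases to 61.3% at 1000 or more. The lists were not matched for depth. Astrocyte and oligodendrocyte genes were called in 13 of 15, 5 with B6 and 8 with JF1 higher. The JF1 side includes Olig1, one of the 42 genes read almost only from JF1 in culture and from both alleles in P0 cortex. Gfap, the intermediate filament of astrocytes on chromosome 11, had B6 shares of 35.4% and 32.9% in BJ1 and 39.2% and 33.1% in JB6 (log2 ratio -0.86 ± 0.062 SE, adjusted p = 1.58e-14). Its level ranged from 62.2 to 426 CPM over the 4 libraries. Gja1, the gap junction protein connexin 43 on chromosome 10, went the other way, with 60.5% and 59.1% in BJ1 and 61.5% and 57.9% in JB6 (0.58 ± 0.054 SE, adjusted p = 1.8e-11). Aldh1l1, a folate enzyme of astrocytes on chromosome 6, had 80.5% and 74.0% in BJ1 and 70.1% and 67.3% in JB6, and the higher pair of libraries was BJ1.

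Mesenchymal, smooth muscle and collagen genes were called in 12 of 19, 9 with B6 and 3 with JF1 higher, and 10 of the 12 were kept. The summed level of this list was 18077 to 25008 CPM at day 21 against 1064 to 1443 in P0 cortex. Col1a2, a chain of collagen type I on chromosome 6, had B6 shares of 60.2% and 60.1% in BJ1 and 66.5% and 63.7% in JB6 (log2 ratio 0.75 ± 0.030 SE, adjusted p = 1.38e-22). The crosses did not overlap, and its parent term was -0.16 (adjusted p = 0.000838). Postn, the matrix protein periostin on chromosome 3, had 62.1% to 67.5%. Lum, the proteoglycan lumican on chromosome 10, had 40.5% to 42.4% and Myl9, a myosin light chain of smooth muscle on chromosome 2, had 39.1% to 41.0%, so JF1 was higher in all 4 libraries of both.

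Interferon-induced and antiviral genes were called in 12 of 18, 6 in each direction. Their summed level was 2928 to 3467 CPM at day 21, against 131 to 161 in P0 cortex. Ifitm3, a membrane protein that blocks virus entry, had B6 shares of 35.2% to 38.2% (14944 B6 and 25862 JF1 read bases) (log2 ratio -0.80 ± 0.030 SE, adjusted p = 1.89e-23). Bst2, which tethers virus particles to the cell, had 73.7% and 68.2% in BJ1 and 69.9% and 74.4% in JB6 (1.32 ± 0.088 SE, adjusted p = 1.39e-15). Trim30a had 18.2% to 34.7%. Ribosomal protein genes were called in 42 of 53, 21 in each direction. Rpl15 was read from B6 and Rpl37a was at 94.4% to 96.4% B6, while Rps23 had 4 B6 and 682 JF1 read bases. Rps23 and Rpl15 were each counted at 1 strain difference, and Rps23 has 14 near-identical copies.

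Lists of progenitor and neuronal genes held calls in 12.5% to 41.7% of their tested genes, where 34.4% of all tested genes were called. Dorsal forebrain progenitor genes were called in 6 of 18, 4 with B6 higher, and cortical projection neuron genes in 5 of 12, 2 with B6 higher. Nes, the progenitor filament nestin on chromosome 3, had B6 shares of 66.7% and 67.1% in BJ1 and 58.2% and 63.9% in JB6 (log2 ratio 0.82 ± 0.091 SE, adjusted p = 1.43e-09). Ctgf, a growth factor of deep-layer neurons that other cell types also make, had 71.3% to 76.7% (adjusted p = 3.58e-16). Reln, the signal of Cajal-Retzius cells on chromosome 5, had 40.1% to 43.5%. Neuronal cytoskeleton, vesicle and maturation genes were called in 5 of 19 and GABAergic genes in 1 of 8. Stmn2 and Ncam1 had 45.2% to 47.0% and 44.3% to 47.0% B6, so all 4 libraries leaned to JF1 by less than 6 points. The summed level of cortical neuron genes was 253 to 337 CPM at day 21 against 2215 to 2731 in P0 cortex.

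Among metabolic and regulatory lists, nuclear respiratory chain genes were called in 29 of 58 (12 with B6 and 17 with JF1 higher) and glutathione and detoxification genes in 11 of 21 (5 and 6). Gstm4, a glutathione transferase on chromosome 3, had B6 shares of 27.8% to 31.9% and its relative Gstm2 59.5% to 66.7%. Protease inhibitor and cathepsin genes were called in 7 of 11 (4 and 3), epithelial genes in 5 of 11 (2 and 3), receptor subunit genes in 5 of 16 (3 and 2) and DNA methylation genes in 6 of 19 (1 and 5). Zinc finger genes named Zfp were called in 51 of 217 (28 and 23) and solute carriers in 64 of 179 (33 and 31). Zfp862, on chromosome 6, had 85.3% to 91.4% B6, while Zfp423 was among the genes read almost only from JF1 in culture and from both alleles in P0 cortex. So were Uqcrc1, of the respiratory chain, and the solute carrier Slc5a3. Endothelial, blood and microglial genes were called in 1 of 5, midbrain and hindbrain genes in 1 of 7 and pluripotency genes in 1 of 3.

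**Figure D4:**
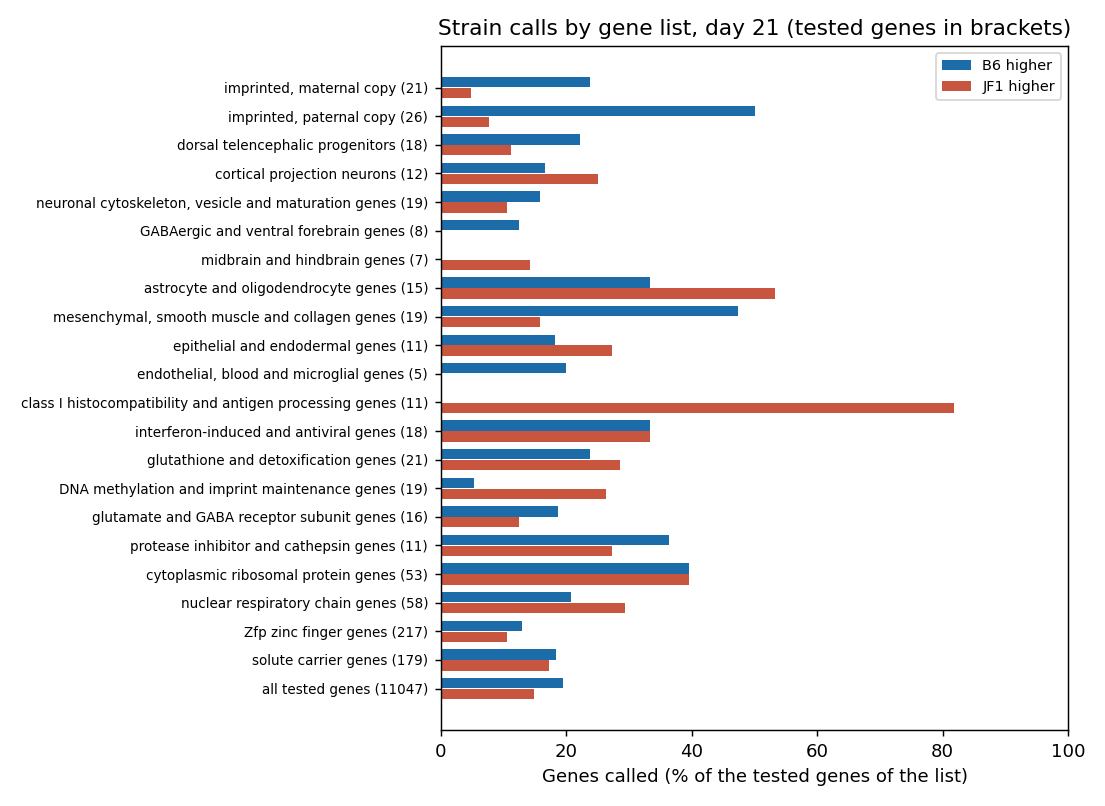
Share of the tested genes of each list that were called at day 21 (%, horizontal axis), with B6 higher in blue and JF1 higher in red, and the number tested in brackets. Over all tested genes the bars stand at 19.6% and 14.8%, class I genes have no B6 bar, and interferon and ribosomal protein genes have bars of equal length.

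The last comparison asked whether the strain bias at day 21 was the same at the other stages. Within the cultures the strain biases at day 21 resembled those at day 12 most. Of 3438 kept and called genes also tested at day 12, 2344 were called there in the same direction (68.2% of the day 21 genes and 64.5% of the day 12 calls) and 29 in the opposite one. In P0 cortex, where 5012 of 10402 tested genes (48.2%) were called, 1946 of 3240 were called in the same direction (60.1% of the day 21 genes and 41.4% of the P0 calls), 236 in the opposite one and 1058 not at all. In ESCs 44.1% of the 8525 genes tested at both stages were called. There 1606 of 2879 were called in the same direction (55.8% of the day 21 genes and 42.8% of the ESC calls), 209 in the opposite one and 1064 not at all. Across genes, the log2 ratios at day 21 had a Spearman correlation of 0.491 with ESCs (8525 genes), 0.717 with day 12 (10095), 0.516 with E13.5 (9444) and 0.494 with P0 cortex (9686), as a description, since genes are not independent replicates.

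The difference of biases was tested directly in a joint fit of all stages, as day 21 minus the other stage. Against day 12, 229 of 10095 genes (2.27%) differed, 111 with a larger B6 share at day 21 and 118 with a smaller one, and 1374 had an unadjusted p under 0.05. The count was 138 without the first day 21 BJ1 library and 150 without the second day 21 JB6 library, and the part with a larger B6 share was 72 without the first and 70 without the second day 12 BJ1 library. Against P0 cortex 1741 of 9686 (18.0%) differed, 734 with a larger and 1007 with a smaller B6 share, and against ESCs 1916 of 8525 (22.5%), 862 and 1054. The excess of smaller shares turned round when each allele column had its own scaling factor, to 901 larger and 859 smaller against P0 cortex and 1031 and 898 against ESCs, and limma called 1075 differences from P0 cortex in all. Of the kept and called genes, 151 of 3438 (4.39%) differed from day 12, 1044 of 3240 (32.2%) from P0 cortex and 894 of 2879 (31.1%) from ESCs. All 3 comparisons share the day 21 libraries. The kept and called genes were chosen by their bias in those same libraries. That choice alone can raise these shares above those of all genes, so they are a description.

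Several genes had a larger bias in culture than in P0 cortex. C1d, a cofactor of the nuclear RNA exosome, had B6 shares of 81.7% and 82.6% in BJ1 and 83.7% and 77.2% in JB6, against 50.8% ± 1.32 (SD, n = 7) in P0 cortex, and the difference was 2.09 on the log2 scale (adjusted p = 4.96e-15). Fxyd6 was at 10.7% ± 1.81 B6 in ESCs, 22.7% ± 0.842 at day 12 and 27.3% ± 1.39 at day 21 (SD, n = 4 each), and at 46.7% ± 0.317 in P0 cortex (n = 7), so every culture stage lay below the tissue. Its difference was 1.68 against ESCs (adjusted p = 5.59e-15), 0.35 against day 12 (adjusted p = 0.000429) and -1.23 against P0 (adjusted p = 4.58e-25). Dkk3, Sqstm1 and 6330403K07Rik had 32.6%, 32.1% and 24.5% B6 at day 21 against 53.5%, 49.9% and 48.1% in P0 cortex, and all 3 differed (adjusted p = 1.48e-16, 1e-17 and 1.77e-25). A bias present in cortex was smaller in culture for Hddc3, a nucleotide hydrolase, at 42.6% ± 3.48 B6 against 15.1% ± 1.68 in P0 cortex (difference 2.05, adjusted p = 1.31e-19), and for Ppme1, which acts on protein phosphatase PP2A, at 20.1% ± 4.13 against 2.72% ± 2.01 (3.18, adjusted p = 2.95e-09). The cell types of the cultures and of the cortex differ by the markers above. The B6 parent stock differed too, transgenic for the cultures and pure for the tissue. Stage, cell type and parent stock cannot be told apart between culture and P0 cortex, and the part of each was not tested.

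Against the earlier culture stages, some genes changed direction and others, such as Fxyd3, changed only the size of their bias. Pttg1, the securin that holds sister chromatids together until anaphase, had B6 shares of 24.1% ± 3.67 in ESCs, 33.3% ± 1.37 at day 12 and 62.7% ± 5.56 at day 21 (SD, n = 4 each). The day 21 libraries had 65.5% and 57.2% in BJ1 and 69.2% and 59.0% in JB6, all above every day 12 library. Its difference from day 12 was 1.74 on the log2 scale (adjusted p = 7.89e-12), with 17 strain differences covered. Tuba1a had 35.9% ± 3.20 B6 in ESCs, 66.7% ± 5.18 at day 12 and 73.6% ± 1.10 at day 21 (difference from ESCs 2.33, adjusted p = 1.6e-09). The part that its near-identical copies in 12 other genes have in this change was not tested. Fxyd3, another regulator of the sodium pump, had 61.5% ± 2.07 at day 21 against 86.8% ± 4.59 at day 12 (difference -2.06, adjusted p = 2.59e-09). Gstm7, a glutathione transferase, had 46.0% ± 4.69 at day 21 against 68.1% ± 2.71 at day 12 (-1.29, adjusted p = 3.54e-05 in edgeR, and not called by limma).

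Among the largest differences from ESCs were genes with a far more uneven share there. Pigp, an enzyme of GPI anchor synthesis on chromosome 16, had 53.5% ± 3.96 B6 at day 21 against 4.60% ± 0.892 in ESCs (difference 4.57, adjusted p = 1.81e-28). 4930583H14Rik had 46.9% ± 4.09 against 2.98% ± 0.677 and Tpbg, a trophoblast surface glycoprotein, 36.2% ± 3.64 against 2.76% ± 0.429. Zc3hav1, an antiviral RNA-binding protein, had 62.2% ± 2.20 against 17.1% ± 6.24. Nod1, a sensor of bacterial cell wall fragments, moved the other way with 60.5% ± 1.58 B6 at day 21 against 95.2% ± 0.647 in ESCs (-3.68, adjusted p = 1.48e-18), as did Vill, a villin-like actin-binding protein, with 57.7% ± 1.58 against 94.0% ± 2.55. In all 6 genes both crosses shifted the same way and no day 21 library overlapped an ESC library.

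**Figure D5:**
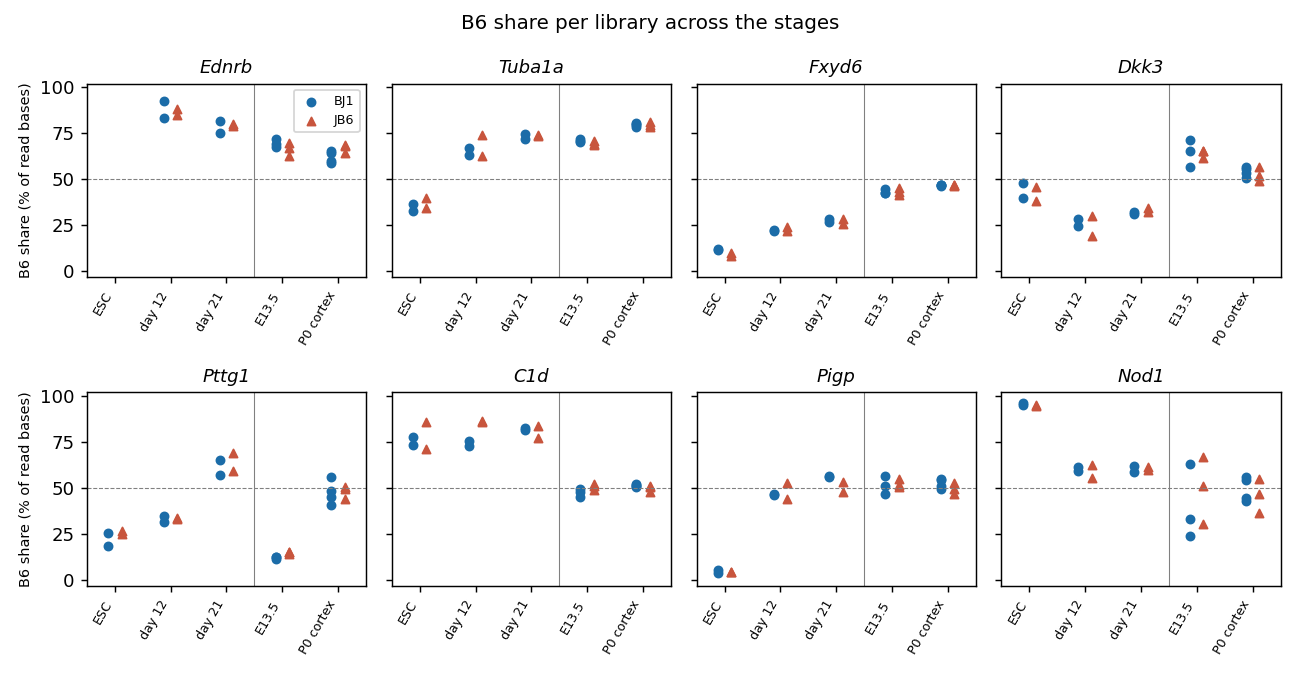
B6 share of read bases (%, vertical axis) in every library of 8 genes at ESC, day 12 and day 21 of culture and, right of the line, in E13.5 tissue and P0 cortex, with BJ1 as circles and JB6 as triangles. Stages where the gene averaged under 20 read bases are left out. Pttg1 and Tuba1a lie below 50% in ESCs and above it at day 21, Pigp stands near 5% in ESCs alone and Nod1 near 95% there, and C1d and Fxyd6 come close to 50% in P0 cortex.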

How the data were processed

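Stranded polyadenylated RNA libraries were sequenced, per the labels' protocols. CASAVA 1.8.2, HTSeq, Novoalign and edgeR are listed in the submitters' processing notes without their roles, with mm9 as the build. Per the authors' description, bases at strain differences were taken with SAMtools mpileup 0.1.18, strain differences that matched CBA or DBA sequence in the B6 parent were removed, and the deposited tables hold raw counts of sense read bases per gene for the maternal and paternal allele. Where genes overlap, the deposited tables join both names into a feature of its own, and 22 such features were tested. The authors' counts were not normalized. Maternal and paternal counts were turned into B6 and JF1 counts by cross.

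The allelic model was fitted with edgeR 4.0.16 (R 4.3.3). Each library entered as a B6 and a JF1 column that shared 1 library size, with terms for library, strain and parent; the strain term gave B6 over JF1. Autosomal genes with a mean of 20 or more read bases were fitted by robust quasi-likelihood, p-values were adjusted by Benjamini-Hochberg over all tested genes, and 0.05 was the threshold. Stage differences were contrasts of the strain term in 1 model of all 5 stages, over genes that reached the floor in both stages compared. Levels in CPM are both alleles summed, scaled to 1000000 read bases per library. The fit was tested on simulated data. Alternatives used DESeq2 1.42.0, limma 3.58.1 with a pseudocount of 0.5, a scaling factor per allele column, counts divided by 3, other floors, omitted chromosomes or libraries, and a replicate block.

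Near-identical copies were found with BLAST 2.17.0 among annotated transcripts. Depth was 5912732 to 7448555 read bases per day 21 library; between libraries of a cross the B6 share of a gene with 100 or more read bases moved by a median of 2.96 points in BJ1 and 3.11 in JB6. Named genes were the known variants, the largest one-allele biases (8 each way, 200 or more read bases), the most abundant graded biases (6 each way), up to 2 per list and direction, 5 per stage difference and direction and 5 with opposite crosses. Genes named beyond these, in the runs of neighbours and at the floor, were chosen after their values were seen. The members and gene lists were chosen with earlier results of these data known. RefSeq GRCm38 gave gene order and promoters, matched by gene number for 11009 of 11047 genes (99.7%); none of its coordinates was applied to the mm9 tables. Libraries of the non-hybrid E14 line were not analysed here. A few named genes are not reported here.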

Additional observations from a re-analysis of the deposited data

Results flagged for a closer look

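In 116 gene groups of 4 to 10 libraries checked for a single library far from the others, 9 stood out at day 21, and chance alone flags about 1 in 20 groups. The second BJ1 library had the B6 share farthest from the others in H3f3a (99.979%), Nhp2l1 (99.934%) and Tmem188 (0.342%), each by 1 or 2 read bases. The first BJ1 library stood apart in Ina, a neuronal filament gene (59.605%), Heatr3 (0.196%) and Slc5a3 (2.19%), the first JB6 library in Hspa8 (99.803%) and Morf4l1 (0.345%), and the second JB6 library in Npm3 (99.635%).

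Other results were picked out because the strain bias at day 21 differed from that of another stage in the joint edgeR test with Benjamini-Hochberg adjustment. All values are day 21 minus the other stage, in log2 B6 over JF1. Against P0 cortex large positive differences were Ndn 4.392, Ppme1 3.178, C1d 2.09 and Hddc3 2.05. The largest negative ones were Uqcrc1 -12.276, Clns1a -12.176, Heatr3 -10.662, Cbln1 -10.038 and Olig1 -9.74, whose B6 counts at day 21 were 0 or 1, so that these fitted sizes depend on the prior count. Ndn is imprinted and was not kept. Its B6 share in BJ1 was 0% in P0 cortex and 23.5% at day 21, and in JB6 96.6% and 93.7%. The value of Ndn thus does not describe a strain bias shared by both crosses.

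Against day 12 the positive differences were Pttg1 1.735, Stap2 1.438, Kif19a 1.397, Tpbpb 1.303 and Rbp4 1.137. The negative ones were Fxyd3 -2.055, Gm266 -1.453, Gstm7 -1.291, C130074G19Rik -1.058 and Vwa2 -1.052. Those of Kif19a and C130074G19Rik were not called without the first day 21 BJ1 library, nor that of Rbp4 without the first day 21 JB6 library, and limma called none of these 3 or of Stap2, Gm266, Gstm7 and Vwa2.

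Against ESCs the positive differences were 4930583H14Rik 4.821, Pigp 4.567, Tpbg 4.317, Zc3hav1 3.035 and Ankrd33b 2.563, and the negative ones Gstp2 -8.015, Tmem40 -4.203, Nod1 -3.684, Vill -3.533 and Mtus2 -3.526. The difference of Gstp2 was not called with counts divided by 3, with only the 2 stages fitted or with a replicate block.

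Among the genes whose crosses pointed opposite ways with a parent term (log2 maternal over paternal) past the threshold, 5 were picked out. The term was -7.309 for Peg3, -6.218 for Nnat and -6.172 for Plagl1, all imprinted, and 5.153 for 2310061I04Rik and 5.147 for Bag6, both on chromosome 17.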

How the results depend on the processing

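Of 2356 values of single genes under the alternatives, 2290 kept their direction and their side of the threshold, 63 fell short of it, 3 passed it anew and none changed sign. DESeq2 called 1694 genes at day 21 (969 with B6 and 725 with JF1 higher) and kept 1650 (957 and 693). Kept genes at least 10 points from an even share in both crosses, an alternative chosen after seeing the data, numbered 1179 (650 and 529). Stage differences were fewer with limma, 1075 against P0 cortex (411 with a larger and 664 with a smaller B6 share) and 68 against day 12 (24 and 44). With counts divided by 3 they numbered 847 (317 and 530) against P0 cortex, 92 (48 and 44) against day 12 and 1009 (459 and 550) against ESCs. The same division gave 2621 strain calls at day 21 in place of 3799, and 2563 of them kept in place of 3717. Leaving out 1 library at a time gave 138 to 204 differences from day 12 (60 to 101 with a larger and 78 to 103 with a smaller B6 share), and 2774 to 2931 strain calls. The cause of these changes was not tested, beyond the smaller number of libraries or counts in each.

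A separate scaling per allele column gave 901 genes with a larger and 859 with a smaller B6 share against P0 cortex, in place of 734 and 1007, 1031 and 898 against ESCs, in place of 862 and 1054, and 122 and 112 against day 12. With the replicate block, 3923 genes were called and 3834 kept; the replicate numbers did not pair libraries across the crosses (correlation of their deviations 0.006), and crossed numbers gave 3911. The block gave 1579, 240 and 1866 differences from P0 cortex, day 12 and ESCs. Calls of Dnmt3b, Lmx1a, Tet2, Gnas, Serpinb6a, Rbp4 and Timp2 were lost without single libraries. Genes with few strain differences or near-identical copies, and those with few read bases, are the least certain, and the share of genes called was lower at lower depth.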

Other observations

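A pair of near-identical glutathione transferase genes on chromosome 19 pointed opposite ways at day 21. Gstp2 had 0 B6 and 1152 JF1 read bases at 2 strain differences. Gstp1, counted at 1 strain difference, had B6 shares of 57.7% and 61.3% in BJ1 and 70.9% and 73.1% in JB6, and its crosses did not overlap. Both have 2 near-identical copies among annotated transcripts, and how reads are shared between them was not tested.

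Tpbpb, a trophoblast gene on chromosome 13 with 1237 B6 and 3599 JF1 read bases at day 21, had B6 shares of 25.9% and 20.5% in BJ1 and 28.0% and 25.7% in JB6, against 12.3% ± 6.16 (SD, n = 4) at day 12.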
